A study of Mus musculus with 21 samples.

Results

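The genes described here are 9 mouse genes whose human counterparts carry risk for amyotrophic lateral sclerosis (ALS) or frontotemporal dementia (FTD). They are C9orf72, Ubqln2, Sod1, Vcp, Optn, Sqstm1, Matr3, Ewsr1 and Taf15, a list that leaves out the gene of TDP-43 itself. They were found by symbol in the table that pairs probe sets with genes. Of the 9, 7 were measured, with 15 probe sets in all, among 12393 genes on the array. Optn, an autophagy receptor, and Taf15, an RNA-binding protein of the FET family, had no probe set under their symbols and have no value below.

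Cerebral cortex of 21 mice on a mixed C57BL/6J x C3HeJ background was hybridised to 21 Affymetrix arrays of type MOE430A 2.0. The study asked what human TDP-43 does to gene expression when it is kept out of the nucleus by a defective nuclear localization signal (dNLS), and when it is wild type. The 5 dNLS bigenic mice (line NLS4, 4 males and 1 female) carried the dNLS TDP-43 transgene and tTA, the transactivator that switches it on when doxycycline is withdrawn. The 4 WT bigenic mice (line WT12, 1 male and 3 females) carried wild-type human TDP-43 and tTA, the 4 dNLS monogenic mice (line NLS4, 3 males and 1 female) the dNLS transgene without tTA, and the 8 nontransgenic mice neither. Of the nontransgenic mice, 6 came from NLS4 (4 males and 2 females) and 2 females from WT12. Tissue was taken 2 weeks after the drug was withdrawn. In the published description of such mice tTA is driven by the Camk2a promoter, which is active in forebrain neurons, while the arrays read the whole cortex. No group carried tTA alone, so that effects of tTA and of TDP-43 cannot be told apart where bigenic mice are set against nontransgenic or dNLS monogenic mice.

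As background, the genes fall into a few roles. C9orf72 acts with SMCR8 and WDR41 in autophagy and lysosomal traffic, and in patients an intronic repeat expansion in it is a common cause of both diseases. Sqstm1 (p62) and Optn hold ubiquitin-tagged cargo to the autophagosome, Ubqln2 carries tagged proteins to the proteasome, and Vcp is an ATPase that pulls tagged proteins out of complexes. Sod1 is the cytosolic copper-zinc superoxide dismutase, and Matr3, Ewsr1 and Taf15 are nuclear RNA-binding proteins.

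C9orf72 was higher and Ubqln2 lower in dNLS bigenic cortex than in each of the other groups. For both genes the call against WT bigenic mice was lost in some alternative fits. Matr3 was lower in both bigenic groups than in nontransgenic mice, but both calls depended on the fit, and that in WT bigenic mice was near the threshold. The representative probe sets of Sqstm1, Vcp, Sod1 and Ewsr1 did not pass the test in any of these comparisons. In dNLS bigenic against nontransgenic mice 1 of the 7 rose and 2 fell, where 22.3% of all genes tested passed in either direction, 10.8% higher and 11.5% lower. The count is too small to set the group apart from that background. Here and below a value is a log2 level as deposited, a change is a difference of log2 levels with its standard error (SE) from a limma fit over all 21 arrays with labelled sex as a covariate, and the threshold is an adjusted p of 0.05 after Benjamini-Hochberg correction over 12393 genes.

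**Figure D1:**
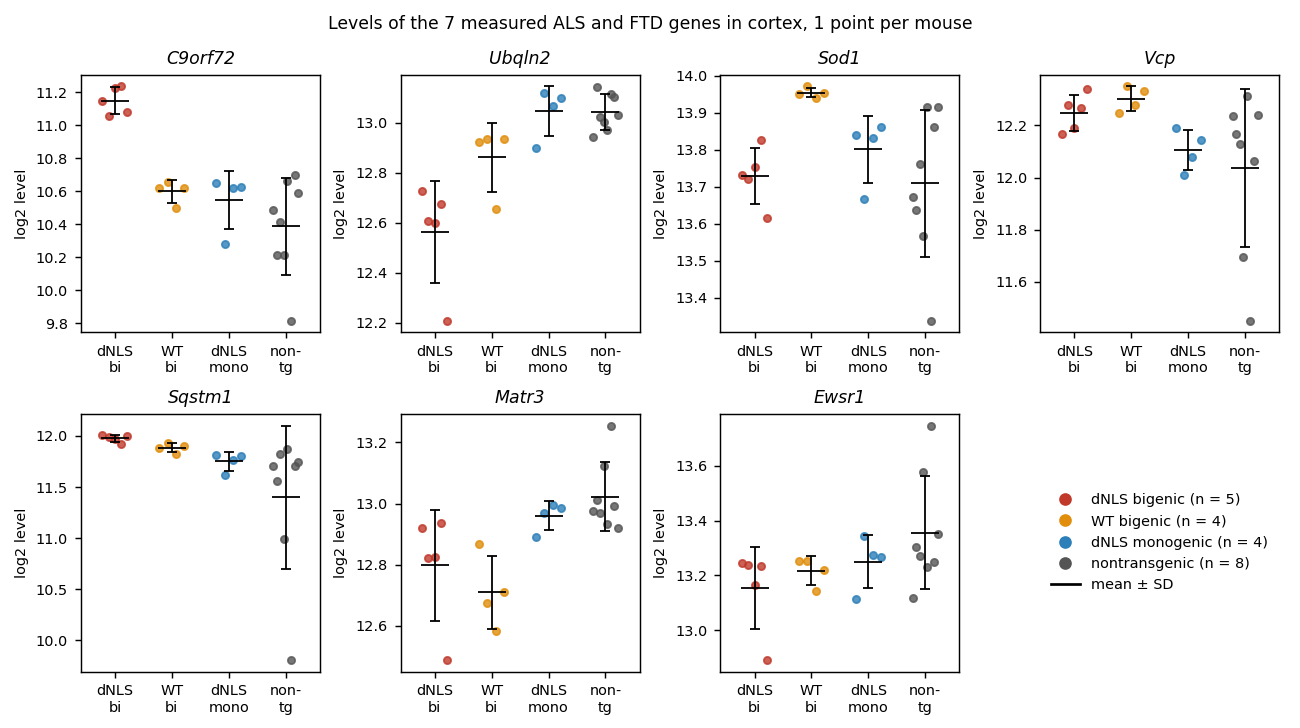
Log2 level of the representative probe set of each measured gene (y axis, own scale in each panel) in dNLS bigenic (dNLS bi), WT bigenic (WT bi), dNLS monogenic (dNLS mono) and nontransgenic (non-tg) cortex. Points are mice, bars the mean ± SD. The 5 dNLS bigenic points of C9orf72 lie above all 16 others, those of Ubqln2 lie below all dNLS monogenic and nontransgenic points, and nontransgenic 6 is far below its group for Sqstm1.

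Arrays differed in how strongly they favoured the 3' end of transcripts, which rises when RNA is broken. The beta-actin 3' minus 5' difference averaged 1.75 ± 0.35 (SD, n = 5) log2 units in dNLS bigenic, 1.39 ± 0.03 (n = 4) in WT bigenic, 2.00 ± 0.76 (n = 4) in dNLS monogenic and 3.18 ± 2.31 (n = 8) in nontransgenic arrays. The largest bias was that of nontransgenic 6 (8.20), followed by nontransgenic 4 (4.70). By two-sided exact permutation tests (the smaller tail doubled, adjusted over 6 pairs of groups) WT bigenic arrays had less bias than nontransgenic ones (adjusted p = 0.0242), and dNLS bigenic against nontransgenic did not pass (adjusted p = 0.226). Nontransgenic 6 held the lowest value of the 21 arrays for C9orf72, Sqstm1, Vcp and Sod1 and the highest for Matr3 and Ewsr1. Nontransgenic 1, labelled male, read as female (Xist at 11.97, Eif2s3y at the lowest value of 2.04), and its label was kept in the fit.

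**Figure D2:**
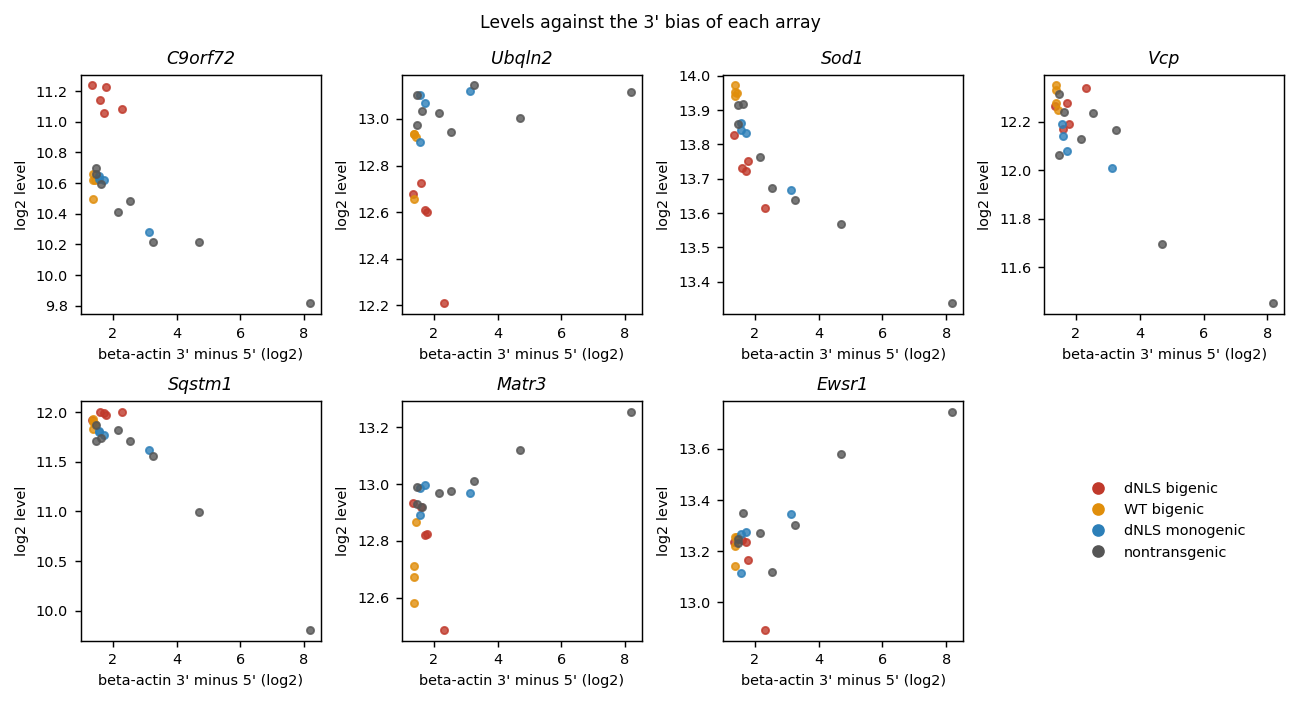
Log2 level of each gene's representative probe set (y axis) against the beta-actin 3' minus 5' difference of the array in log2 units (x axis), 1 point for each of 21 mice, coloured by group. Nontransgenic 6, at 8.20, is the lowest point for C9orf72, Sod1, Vcp and Sqstm1 and the highest for Matr3 and Ewsr1. The 5 dNLS bigenic points of C9orf72 lie above arrays of like bias.

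C9orf72 was read by 1 probe set. Its level was 11.14, 11.05, 11.23, 11.24 and 11.08 in the 5 dNLS bigenic mice. In the WT bigenic mice it was 10.62, 10.66, 10.50 and 10.62. The dNLS monogenic mice gave 10.65, 10.28, 10.62 and 10.63, and the nontransgenic mice ran from 9.82 to 10.70 with a median of 10.45. All 5 dNLS bigenic arrays thus lay above the 16 others, as did 4.91% of all genes. For the other separations of groups given below, the share of all genes that part alike was not counted. The other 3 groups overlapped one another.

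C9orf72 was 0.78 ± 0.12 higher in dNLS bigenic than in nontransgenic cortex (1.71-fold, limma adjusted p = 1.8e-04). Against dNLS monogenic mice, where 14.3% of genes passed, 7.76% higher and 6.54% lower, the change was 0.61 ± 0.14 (adjusted p = 0.00646). Against WT bigenic mice, where 10.8% passed, 6.24% higher and 4.53% lower, it was 0.58 ± 0.15 (adjusted p = 0.0195). The gene thus stood above every other genotype, including the one that makes wild-type TDP-43 from the same kind of transgene. WT bigenic mice differed from nontransgenic mice by 0.20 ± 0.13, which did not pass (adjusted p = 0.439), and dNLS monogenic mice by 0.17 ± 0.13 (adjusted p = 1). Without the 2 arrays of largest 3' bias the change against nontransgenic mice was 0.67 ± 0.08. The difference from WT bigenic mice did not pass without WT bigenic 1 (adjusted p = 0.0586).

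The 2 transgenes came in different lines, so each was also set against nontransgenic mice of its own line. C9orf72 averaged 11.15 ± 0.08 (SD, n = 5) in dNLS bigenic and 10.30 ± 0.29 (n = 6) in nontransgenic NLS4 mice, and 10.60 ± 0.07 (n = 4) in WT bigenic and 10.64 ± 0.08 (n = 2) in nontransgenic WT12 mice. The change of C9orf72 from nontransgenic to bigenic mice was 0.90 ± 0.20 higher in NLS4 than in WT12 (adjusted p = 0.0198). Of all genes 3.55% passed this line test, 1.66% in this direction. Transgene and line go together here and cannot be told apart. The 2 arrays of largest 3' bias, nontransgenic 4 and 6, were both of NLS4. Over the alternative settings the difference ran from 0.66 to 0.99. No other of the 7 genes passed this test. It rests on 2 nontransgenic WT12 mice, and without nontransgenic 7 or nontransgenic 8 the adjusted p was 0.125 or 0.0711.

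In bulk tissue fewer cells of a type and less RNA for each cell cannot be told apart, so markers of cortical cell types were read beside these values. In dNLS bigenic against nontransgenic mice 10.8% of all genes were higher and 11.5% lower, and counts this small cannot set a marker list apart from that. Neuronal markers had 2 of 8 measured genes higher (Rbfox3 and Tubb3) and 1 lower (Gad1) in this comparison. Of the microglial markers 0 of 8 were higher and 2 lower, Tmem119 by -0.61 ± 0.15 and Gpr34 by -1.04 ± 0.30. Astrocyte and oligodendrocyte markers each had 1 lower, of 7 and 6, and endothelial markers none of 6 either way. The log2 of the summed microglial level ran from 13.01 to 13.81 in dNLS bigenic, 13.68 to 14.55 in WT bigenic, 13.51 to 13.59 in dNLS monogenic and 13.32 to 13.88 in nontransgenic mice. No marker was at the lowest value in any group. The part of cell makeup in the changes of the 7 genes was not tested.

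The upstream sequence of 7 of the 9 genes is in the RefSeq table of assembly GRCm38.p6. It was searched because C9orf72 and Sqstm1 were the 2 genes whose 5 dNLS bigenic arrays lay above all dNLS monogenic and nontransgenic arrays. The share of all genes that part in this way was not counted, so this separation has no background beside it. In the 250 bases before the start given in that table, on both strands and with overlapping matches counted, the GC box GGGCGG, a site of Sp1-type factors, occurred 5 times at C9orf72, 4 times at Sod1 and 3 times at Sqstm1. Optn and Taf15 each had 1, and Vcp and Ewsr1 had 0. Among all 32851 such windows, 32.7% held at least 1, 8.47% at least 3 and 1.93% at least 5. The antioxidant response element TGACNNNGC, read by the factor NRF2, occurred once each at Sod1 and Vcp and in 10.2% of windows, and the E-box CACGTG, read by lysosomal gene regulators such as TFEB, at none of the 7 and in 6.02% of windows. The starts used for C9orf72, Optn, Ewsr1 and Taf15 lie inside the spans annotated for these genes, downstream of their outermost starts. The lines below give the C9orf72 stretch densest in GC boxes (chr4:35225852-35225881, minus strand) and the windows of Sqstm1 (chr11:50210821-50211070, minus strand) and Sod1 (chr16:90220512-90220761, plus strand), read 5′ to 3′ along the gene with GC boxes of either strand in capitals.
C9orf72: cgtgtccgGGGCGGGGCGGtcccgGGGCGG
Sqstm1: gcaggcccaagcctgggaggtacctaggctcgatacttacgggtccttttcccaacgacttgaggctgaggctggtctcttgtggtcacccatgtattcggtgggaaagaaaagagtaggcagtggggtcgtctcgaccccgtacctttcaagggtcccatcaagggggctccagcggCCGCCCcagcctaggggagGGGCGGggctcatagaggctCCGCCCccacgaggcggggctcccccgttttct
Sod1: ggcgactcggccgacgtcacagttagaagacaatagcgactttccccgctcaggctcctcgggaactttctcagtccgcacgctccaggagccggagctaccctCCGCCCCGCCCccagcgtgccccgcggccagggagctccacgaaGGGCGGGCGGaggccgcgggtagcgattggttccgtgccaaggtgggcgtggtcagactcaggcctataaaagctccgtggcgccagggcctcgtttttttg
These matches describe the letters only, since no binding was measured. Any link between the boxes and the levels of the genes was not tested.

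Sqstm1 had 1 probe set. Its level lay between 11.92 and 12.01, with a median of 11.99, in the 5 dNLS bigenic mice and was 11.88, 11.93, 11.83 and 11.90 in WT bigenic mice. The dNLS monogenic mice gave 11.81, 11.62, 11.77 and 11.80, and the nontransgenic mice 11.71, 11.56, 11.82, 10.99, 11.87, 9.81, 11.71 and 11.74. The dNLS bigenic arrays stood close together, above every dNLS monogenic and nontransgenic array, and overlapped WT bigenic at their lower edge. The spread of the nontransgenic group came from nontransgenic 4 and 6, the 2 arrays of largest 3' bias.

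With all 21 arrays Sqstm1 changed by 0.55 ± 0.27 in dNLS bigenic against nontransgenic mice and did not pass (adjusted p = 0.170). Without nontransgenic 6 the change was 0.38 ± 0.11 (adjusted p = 0.0132), and without nontransgenic 4 and 6 it was 0.26 ± 0.05 (adjusted p = 6.4e-04). The call therefore depends on nontransgenic 6, and leaving out that array made both the change and its error smaller. Against dNLS monogenic mice the change was 0.22 ± 0.30 (adjusted p = 0.923) with all arrays and 0.23 ± 0.05 (adjusted p = 0.00345) without those 2. Against WT bigenic mice it was 0.04 ± 0.33 (adjusted p = 1), and 0.12 ± 0.05 without those 2, which did not pass either. WT bigenic against nontransgenic mice gave 0.51 ± 0.28 (adjusted p = 0.354).

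Ubqln2 was read by a bright probe set, a dim one averaging 3.40 and 1 at the lowest value on all 21 arrays, which says nothing of a change. The bright one was at 12.73, 12.61, 12.60, 12.68 and 12.21 in dNLS bigenic and 12.92, 12.93, 12.66 and 12.94 in WT bigenic mice. It was at 12.90, 13.12, 13.07 and 13.10 in dNLS monogenic mice and between 12.94 and 13.14, with a median of 13.03, in nontransgenic mice. All dNLS bigenic arrays lay below all dNLS monogenic and nontransgenic ones, a separation whose share among all genes was not counted. They overlapped WT bigenic mice through WT bigenic 3, which sat below the rest of its group.

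Ubqln2 fell by 0.50 ± 0.08 in dNLS bigenic against nontransgenic mice (1.41-fold lower, adjusted p = 1.1e-04) and by 0.49 ± 0.09 against dNLS monogenic mice (adjusted p = 7.3e-04). The fall against WT bigenic mice was 0.34 ± 0.09 (adjusted p = 0.0239). WT bigenic mice changed by -0.16 ± 0.08 against nontransgenic mice, which did not pass (adjusted p = 0.290). Ubqln2 was thus the one gene of the 7 that fell against all 3 other groups. Both bigenic groups held 1 mouse far below the others, and without dNLS bigenic 5 the fall against nontransgenic mice was 0.38 and passed, while against WT bigenic mice it was 0.20 (adjusted p = 0.128). That last call was also lost without WT bigenic 1, 2 or 4. The dim probe set changed by -0.48 ± 0.27 against nontransgenic mice, which did not pass (adjusted p = 0.274 over all 22626 probe sets).

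Vcp, the segregase ATPase, ran from 12.17 to 12.34 in dNLS bigenic, 12.25 to 12.35 in WT bigenic, 12.01 to 12.19 in dNLS monogenic and 11.45 to 12.31 in nontransgenic mice. The WT bigenic arrays lay above all dNLS monogenic ones, the other pairs of groups overlapped, and the 2 lowest values were again nontransgenic 4 and 6, at 11.70 and 11.45. The change in dNLS bigenic mice was 0.22 ± 0.12 against nontransgenic (adjusted p = 0.234), 0.14 ± 0.14 against dNLS monogenic (adjusted p = 0.706) and -0.04 ± 0.15 against WT bigenic mice (adjusted p = 1). Without those 2 arrays the change of Vcp against dNLS monogenic mice was 0.15 ± 0.05 and passed (adjusted p = 0.0357), and against nontransgenic mice it was 0.07 ± 0.04 and did not. Its second probe set changed by 0.13 ± 0.31 against nontransgenic mice (adjusted p = 1).

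Sod1 was read differently by its 2 probe sets. The bright one was at 13.73, 13.72, 13.75, 13.83 and 13.61 in dNLS bigenic and at 13.95, 13.97, 13.94 and 13.95 in WT bigenic mice. It ran from 13.67 to 13.86 in dNLS monogenic and from 13.34 to 13.92 in nontransgenic mice. All dNLS bigenic arrays lay below all WT bigenic ones, and within the range of nontransgenic mice. The dim probe set was at 8.32, 8.21, 7.80, 8.05 and 8.47 in dNLS bigenic and at 8.54, 8.41, 8.63 and 8.54 in WT bigenic mice, and ran from 8.40 to 8.71 in dNLS monogenic and 8.54 to 8.86 in nontransgenic mice. For this probe set the dNLS bigenic arrays lay below every nontransgenic array.

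The bright Sod1 probe set changed by 0.03 ± 0.08 in dNLS bigenic against nontransgenic mice (95% interval -0.14 to 0.20, adjusted p = 1). The dim one fell by 0.53 ± 0.10 (adjusted p = 9.4e-04, where 19.3% of all probe sets passed) and by 0.41 ± 0.11 against dNLS monogenic mice (adjusted p = 0.0231, where 11.9% passed). Against WT bigenic mice, where 8.41% passed, the dim one changed by -0.38 ± 0.12 (adjusted p = 0.0737). The 2 probe sets of Sod1 therefore do not give 1 answer for the gene, and which part of the transcript each reads is not known here. Against WT bigenic mice the bright one changed by -0.21 ± 0.10 (adjusted p = 0.251) with all arrays and by -0.19 ± 0.06 (adjusted p = 0.049) without the 2 arrays of largest 3' bias. With the beta-actin difference as a covariate that Sod1 change was -0.17 ± 0.03 (adjusted p = 0.0017). WT bigenic against nontransgenic mice gave 0.24 ± 0.09, which did not pass (adjusted p = 0.151).

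**Figure D3:**
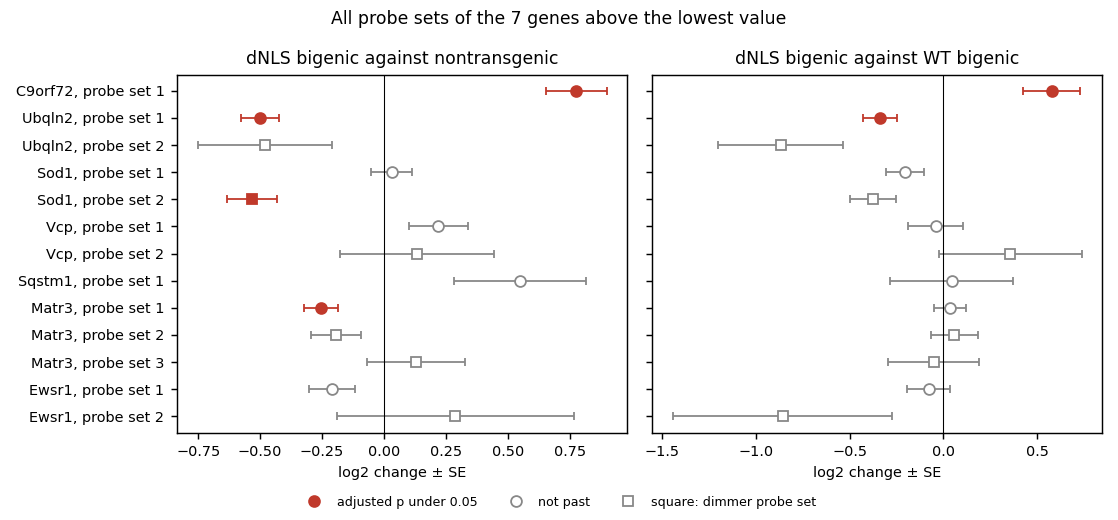
Log2 change ± SE (x axis) of the 13 probe sets of the 7 genes that were above the lowest value, dNLS bigenic against nontransgenic (left) and against WT bigenic mice (right), numbered by mean level. Filled red symbols passed an adjusted p of 0.05 over 22626 probe sets, and squares are the dimmer probe sets. The 2 probe sets of Sod1 part in the left panel, at 0.03 and -0.53.

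Matr3, a nuclear RNA-binding protein, was the gene of the 7 that passed in WT bigenic against nontransgenic mice, by a narrow margin. Its brightest probe set was at 12.92, 12.82, 12.82, 12.94 and 12.49 in dNLS bigenic and 12.87, 12.67, 12.58 and 12.71 in WT bigenic mice. It was at 12.89, 12.97, 12.996 and 12.99 in dNLS monogenic mice and between 12.92 and 13.26 in nontransgenic mice, with a median of 12.98. The WT bigenic arrays lay below all dNLS monogenic and nontransgenic ones, and the dNLS bigenic arrays reached into both.

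Matr3 fell by 0.25 ± 0.07 in dNLS bigenic against nontransgenic mice (adjusted p = 0.0120). It fell by 0.29 ± 0.07 in WT bigenic against nontransgenic mice (adjusted p = 0.0491), a comparison that 2.23% of genes passed and 1.54% in this direction, and no other of the 7 genes did. The 2 bigenic groups differed by 0.03 ± 0.08 (95% interval -0.14 to 0.21, adjusted p = 1). Both calls depended on the fit, and the second lies near the threshold. The first was lost without dNLS bigenic 5 (-0.16, adjusted p = 0.0936). The second was lost in 18 of the 21 fits without 1 array, with adjusted p-values up to 0.170, and stood at 0.0532 when adjusted over all probe sets. The other 2 probe sets of Matr3 changed by -0.19 ± 0.10 (adjusted p = 0.230) and 0.13 ± 0.20 (adjusted p = 0.862) in dNLS bigenic against nontransgenic mice. In WT bigenic against nontransgenic mice they changed by -0.25 ± 0.11 (adjusted p = 0.237) and 0.18 ± 0.21 (adjusted p = 0.756). In dNLS bigenic against dNLS monogenic mice the brightest changed by -0.17 ± 0.08 (adjusted p = 0.203).

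Ewsr1, a FET-family RNA-binding protein, ran from 12.89 to 13.24 in dNLS bigenic, 13.14 to 13.25 in WT bigenic, 13.12 to 13.35 in dNLS monogenic and 13.12 to 13.75 in nontransgenic mice. All groups overlapped, and the lowest value was that of dNLS bigenic 5, which was also the lowest array for Ubqln2 and Matr3. The change in dNLS bigenic against nontransgenic mice was -0.21 ± 0.09 (adjusted p = 0.130), and -0.12 ± 0.06 without the 2 arrays of largest 3' bias. Against WT bigenic and dNLS monogenic mice it was -0.08 ± 0.11 and -0.10 ± 0.11 (adjusted p = 0.974 and 0.802). This probe set, like those that represent Txn2 and Ddx17 below, carries a suffix that Affymetrix gives to probes that may bind other transcripts. Those that represent Kif5a, Chchd10, Gclc and Srxn1 below carry another suffix, given to probes shared by several transcripts. The second probe set of Ewsr1 changed by 0.29 ± 0.48 (adjusted p = 0.896), and the third was at the lowest value on all 21 arrays.

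**Figure D4:**
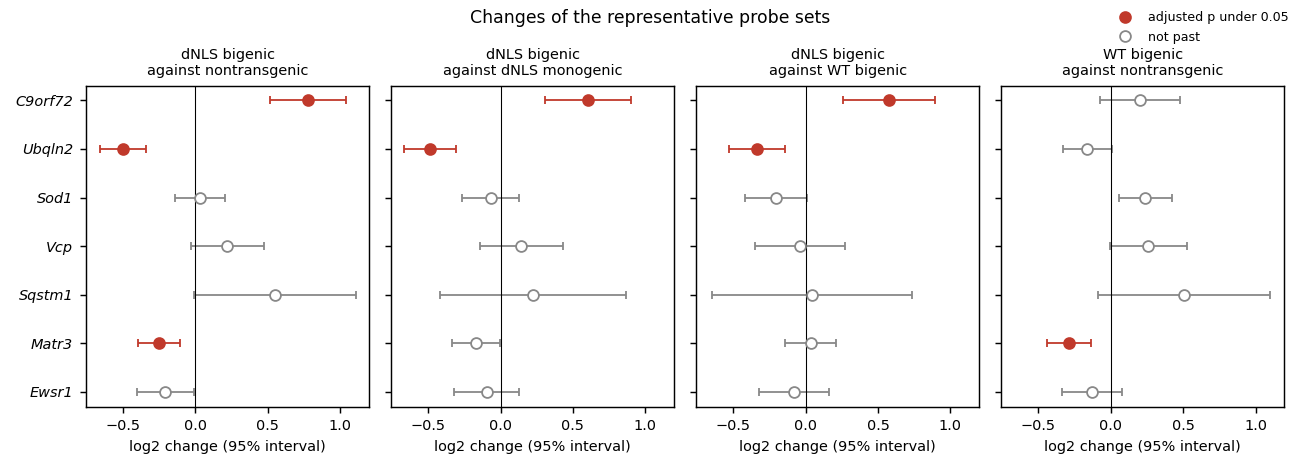
Log2 change with its 95% interval (x axis) for the representative probe set of each gene in 4 comparisons. Filled red points passed an adjusted p of 0.05 over 12393 genes. C9orf72 and Ubqln2 passed in all 3 comparisons of dNLS bigenic mice, Matr3 in both comparisons with nontransgenic mice, and the intervals of Sqstm1 are the widest.

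No call was made for any of the 7 genes in dNLS monogenic mice. In dNLS monogenic against nontransgenic mice their changes ran from -0.11 (Ewsr1) to 0.33 (Sqstm1), with every adjusted p at 1. There 0% of the 12393 genes passed limma's adjusted threshold, and 196 genes had an unadjusted p under 0.05. In WT bigenic against dNLS monogenic mice, where 0.0242% of genes passed, none of the 7 did, and Matr3 had the largest change at -0.20 ± 0.09 (adjusted p = 0.646). By mean level, dNLS bigenic mice ranked first of the 4 groups for C9orf72 and Sqstm1 and last for Ubqln2 and Ewsr1, WT bigenic mice first for Sod1 and Vcp and last for Matr3. In these orders neighbouring groups differed past the threshold for dNLS bigenic against WT bigenic mice in C9orf72 and Ubqln2 and at no other step.

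The 7 genes did not vary as a block over the mice. Across the 21 arrays the Pearson correlation of C9orf72 was -0.72 with Ubqln2, 0.74 with Sqstm1 and 0.39 with Sod1. Vcp and Sqstm1 had a correlation of 0.92, and of 0.60 without the 2 arrays of largest 3' bias. Matr3 and Ewsr1 had one of 0.78, and of 0.66 without them. These arrays share genotype groups and RNA quality, so the values are a description.

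The genes most like each of the 7 were taken by Pearson correlation over the 21 arrays among 8365 others above the lowest value on all of them. They were Nrip3 and D10Wsu102e for C9orf72 (both 0.97) and Ltk and Gnai1 for Ubqln2 (0.97 and 0.96). For Sod1 they were Plaat3 and Agpat5 (both 0.97), and for Matr3 Eml5 and Tm9sf2 (0.95 and 0.94). These 8 held correlations of 0.93 to 0.97 without the 2 arrays of largest 3' bias. For Sqstm1 they were Tecr and Efcab14 (0.99 and 0.98, against 0.92 and 0.82 without those arrays), for Vcp Slc25a5 and Gtf2i (both 0.95, against 0.74 and 0.83) and for Ewsr1 Chfr and Vdac1 (both 0.96, against 0.88 for each).

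Genes that work with the 7 were read as lists, each set beside the 10.8% of genes that were higher and 11.5% that were lower in dNLS bigenic against nontransgenic mice and the median change of 0.0 over all genes. Of 16 measured VCP cofactors, 6 rose and none fell, with a median of 0.01. Ubxn1 rose by 0.98 ± 0.23 (adjusted p = 0.00482), Nsfl1c (p47) by 0.85 ± 0.10 (adjusted p = 1.5e-05) and the ubiquitin ligase Syvn1 by 0.72 ± 0.14 (adjusted p = 8.2e-04). Nploc4, which with UFD1 forms the adaptor that brings ubiquitin-tagged proteins to VCP, rose by 0.47 ± 0.05, and Ufd1, named after its value was seen, by 0.41 ± 0.09. Thus several adaptors of VCP were higher where the call for Vcp itself was not made. Against WT bigenic mice, where 6.24% of all genes were higher and 4.53% lower, 3 of the 16 rose and none fell. They were Syvn1 by 0.86 ± 0.17 (adjusted p = 0.00237), Nploc4 by 0.55 ± 0.06 (adjusted p = 3.1e-05) and Nsfl1c by 0.44 ± 0.13 (adjusted p = 0.0346, lost in 8 fits without 1 array), while Ubxn1 changed by 0.10 ± 0.28 (adjusted p = 1).

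Nploc4 averaged 11.95 ± 0.06 (SD, n = 5) in dNLS bigenic, 11.45 ± 0.02 (n = 4) in WT bigenic, 11.43 ± 0.07 (n = 4) in dNLS monogenic and 11.51 ± 0.13 (n = 8) in nontransgenic mice. Ubxn1 averaged 11.12 ± 0.19 in dNLS bigenic and 11.09 ± 0.10 in WT bigenic mice, against 10.47 ± 0.19 in dNLS monogenic and 10.18 ± 0.58 in nontransgenic mice. Nploc4 was thus high in dNLS bigenic mice, while the 2 bigenic groups of Ubxn1 lay close together.

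Among 17 measured autophagy receptors and LC3 conjugation genes 3 rose and 2 fell. Atg7, the E1-like enzyme of LC3 conjugation, rose by 1.00 ± 0.18 against nontransgenic (adjusted p = 5.4e-04), 1.06 ± 0.20 against dNLS monogenic (adjusted p = 0.00160) and 0.89 ± 0.22 against WT bigenic mice (adjusted p = 0.0134). Its second probe set, at a mean of 5.14, changed by 0.12 ± 0.24 and did not pass. Gabarapl2, an LC3 relative, rose by 0.42 ± 0.09 (adjusted p = 0.00205), and Atg16l1, a scaffold of the conjugation machinery, fell by 0.69 ± 0.22 (adjusted p = 0.0301). The Atg16l1 call was lost in 6 fits without 1 array (adjusted p up to 0.0708), and the change was -0.45 without the 2 arrays of largest 3' bias. Of 6 measured partners of the C9orf72 and ULK1 complexes 2 rose and 1 fell. The kinase Ulk1 rose by 0.53 ± 0.18 (adjusted p = 0.0370), its partner Rb1cc1 by 0.51 ± 0.15 (adjusted p = 0.0201), and Rab1a, a GTPase of early secretory traffic, fell by 0.22 ± 0.07 (adjusted p = 0.0372). None of the 6 passed against WT bigenic mice. Without the 2 arrays of largest 3' bias Ulk1 and Rab1a did not pass (adjusted p = 0.0522 and 0.0896), and Rb1cc1 rose by 0.35. The calls for Ulk1 and Rab1a were also lost in 6 and 5 fits without 1 array. Against nontransgenic mice the second probe sets of Rb1cc1 and Rab1a changed by 0.51 ± 0.24 (adjusted p = 0.166) and -0.12 ± 0.10 (adjusted p = 0.524).

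Of 5 measured ubiquilins and ubiquitin shuttles, the group of Ubqln2, 1 rose and none fell. It was Psmd4, the ubiquitin receptor of the proteasome, at 0.61 ± 0.13 (adjusted p = 0.00296), and it changed by 0.06 ± 0.16 against WT bigenic mice (adjusted p = 1). Around Sod1, 3 of 14 measured antioxidant enzymes rose and none fell. They were the mitochondrial thioredoxin Txn2 by 0.42 ± 0.05 (adjusted p = 2.5e-05), the glutaredoxin Glrx by 0.37 ± 0.11 (adjusted p = 0.0264) and the peroxiredoxin Prdx2 by 0.24 ± 0.06 (adjusted p = 0.00426). Txn2 and Prdx2 also rose against WT bigenic mice, by 0.30 ± 0.07 (adjusted p = 0.00789) and 0.23 ± 0.07 (adjusted p = 0.0397). The call for Glrx against nontransgenic mice was lost in 5 fits without 1 array, and that for Prdx2 against WT bigenic mice in 10. The second probe set of Prdx2 changed by 0.40 ± 0.24 against nontransgenic (adjusted p = 0.326) and by -0.01 ± 0.30 against WT bigenic mice, and did not pass.

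Of 13 measured genes of NRF2, its regulators Keap1 and Bach1 and its targets, 4 rose and 1 fell. Keap1, named after its value was seen, was among the 4, at 0.35 ± 0.06 (adjusted p = 6.5e-04), and is not counted as a target here. Srxn1, the sulfiredoxin, rose by 0.66 ± 0.20 (adjusted p = 0.0218), and 0.46 without the 2 arrays of largest 3' bias, and its call was lost in 1 fit without 1 array (adjusted p = 0.0511). Txnrd1, a thioredoxin reductase, rose by 0.51 ± 0.14 (adjusted p = 0.0148), and Gclc, the catalytic subunit of glutathione synthesis, by 0.43 ± 0.08 (adjusted p = 0.00121). Gsta4, a glutathione transferase, moved the other way and fell by 0.61 ± 0.11 against nontransgenic (adjusted p = 7.2e-04) and by 0.97 ± 0.14 against WT bigenic mice (adjusted p = 2.0e-04). It averaged 11.03 ± 0.15 (SD, n = 5) in dNLS bigenic, 12.06 ± 0.06 (n = 4) in WT bigenic, 11.70 ± 0.14 (n = 4) in dNLS monogenic and 11.67 ± 0.27 (n = 8) in nontransgenic mice. Against WT bigenic mice, where 6.24% of all genes were higher and 4.53% lower, 2 of the 13 rose and 1 fell. Gclc rose there by 0.49 ± 0.10 (adjusted p = 0.0052), while Srxn1 (0.26 ± 0.24, adjusted p = 0.737) and Txnrd1 (0.09 ± 0.18) did not pass. The targets of NRF2 thus did not move in 1 direction.

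Around Matr3 and Ewsr1, a list of nuclear RNA-binding proteins and the importin Tnpo1 had 14 measured genes. None of them rose and 4 fell, with a median of -0.16. Tnpo1, the importin that carries FET proteins into the nucleus, fell by 0.67 ± 0.12 (adjusted p = 4.8e-04). Hnrnpm, a splicing regulator, fell by 0.64 ± 0.19 (adjusted p = 0.0188), and by 0.42 without the 2 arrays of largest 3' bias. The helicase Ddx17 fell by 0.26 ± 0.07 (adjusted p = 0.0132), while its second probe set changed by 0.02 ± 0.08. The Ddx17 call was lost in 1 fit without 1 array (adjusted p = 0.102). No gene of this list passed against WT bigenic mice, where Tnpo1 changed by -0.21 ± 0.14 (adjusted p = 0.489). In WT bigenic against nontransgenic mice none of the 14 passed, and Tnpo1 changed by -0.45 ± 0.13 (adjusted p = 0.0701).

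**Figure D5:**
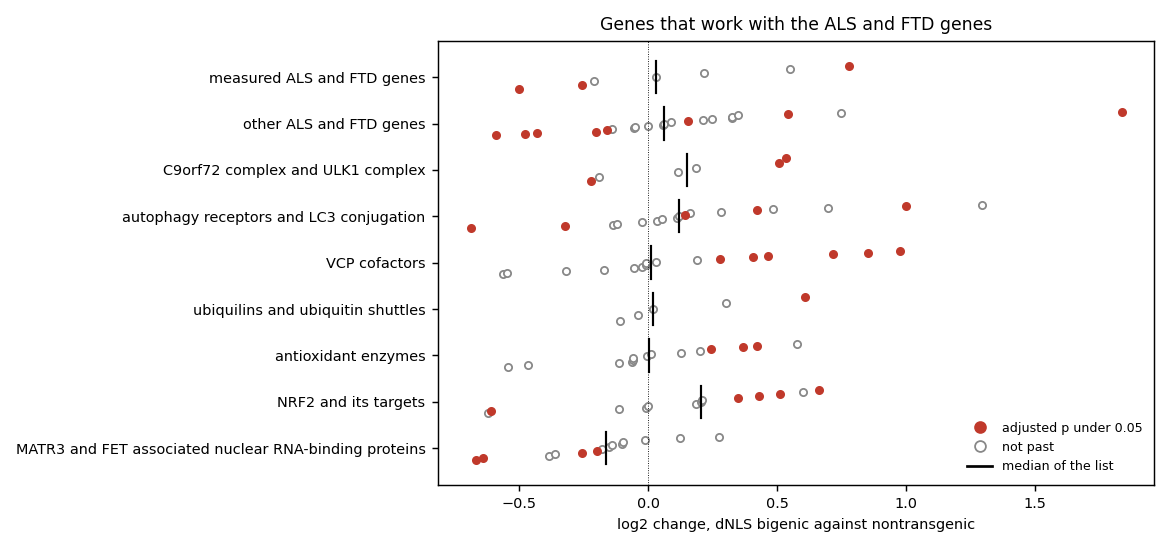
Log2 change in dNLS bigenic against nontransgenic mice (x axis) of every measured gene of the lists (rows, 1 point for each gene). Filled red points passed an adjusted p of 0.05 over 12393 genes, and the vertical bars are list medians. VCP cofactors have 6 red points, all above 0. The list of RNA-binding proteins, which includes the importin Tnpo1, has 4, all below 0.

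Of 21 other measured ALS and FTD genes 3 rose and 5 fell. Kif5a, a neuronal kinesin, rose by 1.84 ± 0.24 against nontransgenic (3.57-fold, adjusted p = 2.4e-05), 1.84 ± 0.27 against dNLS monogenic (adjusted p = 1.5e-04) and 1.34 ± 0.29 against WT bigenic mice (adjusted p = 0.00580). It averaged 9.93 ± 0.23 (SD, n = 5) in dNLS bigenic, 8.75 ± 0.42 (n = 4) in WT bigenic, 8.10 ± 0.41 (n = 4) in dNLS monogenic and 8.18 ± 0.51 (n = 8) in nontransgenic mice, a larger change than that of any of the 7. The probe set behind these Kif5a values has the suffix for probes shared by several transcripts. The other Kif5a probe set was at the lowest value on all arrays and says nothing of a change. Unc13a, a synaptic vesicle priming factor, fell by 0.59 ± 0.10 (adjusted p = 4.5e-04) and Pfn1, an actin-binding profilin, rose by 0.54 ± 0.14 (adjusted p = 0.00822). Against WT bigenic mice 2 of the 21 rose and none fell, beside 6.24% of all genes higher and 4.53% lower, so the share that rose was near that of all genes. They were Kif5a and Chchd10, a mitochondrial protein, which rose by 0.11 ± 0.03 (adjusted p = 0.0213). That Chchd10 call was lost in 3 fits without 1 array. The second Chchd10 probe set changed by 0.21 ± 0.11 against WT bigenic mice (adjusted p = 0.329).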

How the data were processed

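The authors deposited 1 log2 level for each of 22690 probe sets on 21 arrays. The base of the logarithm was read from the values (2.04 to 15.1), and between 30.7% and 32.4% of the values on an array equal the lowest one, so changes near it are compressed. Per the labels' protocols, 3 micrograms of total RNA with a RIN of 7 or more were amplified from a poly(T) primer and labelled with biotin. Partek is named in the submitters' processing notes. The methods of normalization and of background treatment were not stated in those notes or labels.

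Apart from 64 controls, 20380 probe sets named 1 gene, 691 several and 1555 none, and only the first were used for genes. Through Entrez identifiers 20351 matched RefSeq (GRCm38.p6), 29 did not, and no symbol changed. The probe set of highest mean represented each of the 12393 genes, 2854 of which were at the lowest value on all arrays (tolerance 0.01). The array median over genes lay between 7.48 and 7.72. Replicates are separate mice, and the number of arrays limits the precision.

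The 4 groups and labelled sex were fitted in limma 3.58.1 (R 4.3.3) by lmFit and by eBayes with trend, and the line test split nontransgenic mice by line. A second fit took all 22626 probe sets that are not controls. The fit was tested on simulated data. The alternatives were 12 settings and the removal of each array in turn. The genes and lists were chosen with earlier results of these data known. In each list the text names the 3 largest changes past the threshold against nontransgenic mice and the 2 largest against WT bigenic mice, with 2 further genes by likeness for each of the 7.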

Additional observations from a re-analysis of the deposited data

Results flagged for a closer look

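Among 28 sets of values (7 genes in 4 groups) 7 single arrays lay far from the rest of their group by Dixon's test at the 95% level, where chance flags about 1 in 20. For C9orf72 dNLS monogenic 2 was at 10.28 against 10.62 to 10.65 in the other 3 mice, and for Sod1 the same array was at 13.67 against 13.83 to 13.86. Its beta-actin 3' minus 5' difference of 3.13 was the largest of its group. For Ubqln2 dNLS bigenic 5 was at 12.21 against 12.60 to 12.73 in the other 4, and WT bigenic 3 at 12.66 against 12.92 to 12.94 in the other 3. The array dNLS bigenic 5 was also low for Matr3, at 12.49 against 12.82 to 12.94, and for Ewsr1, at 12.89 against 13.17 to 13.24. It is from the only female of its group and had that group's largest 3' difference, at 2.30, and neither was tested as a cause. For Sqstm1 nontransgenic 6 was at 9.81 against 10.99 to 11.87, on the array of largest 3' bias.

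The change of C9orf72 from nontransgenic to bigenic mice differed between the lines by 0.90 ± 0.20 (SE, limma interaction, adjusted p = 0.0198). Its level was higher in 5 of 5 dNLS bigenic mice than in all 6 nontransgenic NLS4 mice, a separation whose share among all genes was not counted.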

How the results depend on the processing

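No paired analysis was possible because the labels give no replicate numbers shared between groups. The rises of C9orf72 and falls of Ubqln2 against nontransgenic and dNLS monogenic mice passed under each of the 12 settings that applied and without each single array. With arrays centred on their medians the calls against WT bigenic mice were lost for C9orf72 (adjusted p = 0.0662) and Ubqln2 (adjusted p = 0.0778). The Matr3 call against nontransgenic mice was lost with centring, with the mean of its probe sets and with only the 2 groups fitted. That in WT bigenic mice was lost under 8 settings. Among them were controls of the same line, the beta-actin covariate and the removal of the 2 arrays of largest 3' bias. Sod1 against nontransgenic mice turned to -0.09 with the beta-actin difference as a covariate (adjusted p = 0.0325) and to -0.25 with the mean of its probe sets (adjusted p = 2.3e-04), the dim one included. The causes were not tested. Over 7 genes and 7 comparisons, 26 of 1029 fits without 1 array lost a call and 1 gained one. Of 553 other fits 13 lost a call and 16 gained one with the sign kept. A further 2 gained one with the sign reversed, the Sod1 fits given above.

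The number of genes past the threshold was 2759 for dNLS bigenic against nontransgenic, 1773 against dNLS monogenic, 1334 against WT bigenic mice, 276 and 3 for WT bigenic against nontransgenic and dNLS monogenic mice, 0 for dNLS monogenic against nontransgenic mice (196 at an unadjusted p under 0.05) and 440 for the line interaction. Without 1 array it ran from 2365 to 3316 for dNLS bigenic against nontransgenic, from 37 to 579 for WT bigenic against nontransgenic, from 1373 to 2517 for dNLS bigenic against dNLS monogenic, from 817 to 1925 for dNLS bigenic against WT bigenic, from 0 to 1 for dNLS monogenic against nontransgenic, from 0 to 7 for WT bigenic against dNLS monogenic and from 199 to 723 for the line interaction. WT bigenic 1 gave the low ends 37 and 817, nontransgenic 7 the 199, and nontransgenic 5 the high ends 579 and 723. Of the other fits 53 of 79 stayed within 1.5 times, and the rest are these. With array weights it was 4247 for dNLS bigenic against nontransgenic, 869 for WT bigenic against nontransgenic, 4318 for dNLS bigenic against dNLS monogenic, 3108 for dNLS bigenic against WT bigenic, 593 for WT bigenic against dNLS monogenic and 1849 for the line interaction. With arrays centred on their medians it was 152 for WT bigenic against nontransgenic. With the beta-actin 3' minus 5' difference as a covariate it was 163 for WT bigenic against nontransgenic, 2890 for dNLS bigenic against dNLS monogenic, 2437 for dNLS bigenic against WT bigenic, 6 for WT bigenic against dNLS monogenic and 840 for the line interaction. With controls of the same line it was 1 for WT bigenic against nontransgenic. With the mean of all probe sets of a gene it was 170 for WT bigenic against nontransgenic. With no sex covariate it was 505 for WT bigenic against nontransgenic and 5 for WT bigenic against dNLS monogenic. With only genes above the lowest value on all arrays it was 420 for WT bigenic against nontransgenic. With only the 2 groups compared it was 0 for WT bigenic against nontransgenic (limma, 1547 at an unadjusted p under 0.05), 2320 for dNLS bigenic against WT bigenic and 11 for WT bigenic against dNLS monogenic. With the 2 arrays of largest 3' bias left out it was 424 for WT bigenic against nontransgenic, 2885 for dNLS bigenic against dNLS monogenic, 2274 for dNLS bigenic against WT bigenic, 33 for WT bigenic against dNLS monogenic and 848 for the line interaction. With sex as read from Xist it was 5 for WT bigenic against dNLS monogenic.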
